A study of Mus musculus with 4 samples.

Results

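The 42 genes described here encode heterogeneous nuclear ribonucleoproteins (hnRNPs) and SR proteins, the families of RNA-binding proteins that package nuclear transcripts and steer splice site choice. They were chosen by gene symbol from a list of 42 names, and all 42 were found among the 54532 genes of every table. All 42 passed a filter on low counts (a mean CPM, counts scaled to library size, of at least 1), which 11640 genes passed. A mean of at least 10 CPM was reached by 8799 genes and likewise by all 42. The 4 libraries came from RAW 264.7, a line of mouse macrophages, with Hnrnpul1, itself a gene of an hnRNP U-like protein, either disrupted or intact. The groups were Hnrnpul1-/- cells given lipopolysaccharide (LPS) at 100 ng/ml for 10 h, untreated Hnrnpul1-/- cells, wild-type cells given the same LPS, and untreated wild-type cells. Each group held 1 library, so no value has a replicate check. The labels do not say whether the knockout line was 1 clone.

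hnRNPs coat nascent RNA and often silence exons by binding splicing silencers, whereas SR proteins bind exonic enhancers through RNA recognition motifs and recruit the spliceosome through their arginine and serine repeats. Many genes of both families adjust their own mRNA by including exons or retaining introns that send it to nonsense-mediated decay. In macrophages, LPS acts through the receptor TLR4 and remodels both transcription and splicing, and several of these proteins also bind cytokine mRNAs.

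Total counts were 17909549 in LPS-treated Hnrnpul1-/-, 17361615 in untreated Hnrnpul1-/-, 17045432 in LPS-treated wild type and 17162124 in untreated wild type. Levels below are counts scaled by edgeR's TMM factors (normalized CPM) unless FPKM is named. Differences are log2 ratios with a 95% interval that covers counting error only, and to be called higher or lower a gene needed a 1.5-fold ratio and an interval that excluded 0. Hnrnpul1 had 350 and 447 reads in LPS-treated and untreated Hnrnpul1-/- cells, against 3114 and 5086 reads in LPS-treated and untreated wild-type cells. The transcript thus stood at 10.7% of wild type (9.57 to 12.0%) under LPS and at 8.62% (7.81 to 9.50%) untreated. Of 10 macrophage markers, 9 passed the filter, with 96841 and 66207 reads in all in LPS-treated and untreated Hnrnpul1-/- and 135338 and 74224 in LPS-treated and untreated wild type, and Mertk had 0 or 1 read in each library. Lists of T cell, epithelial and fibroblast markers held 0 to 4 reads in all in each library, and 5 B cell markers held 4 to 62 reads, most of them from Pax5, with 29 reads in LPS-treated Hnrnpul1-/-, 61 in LPS-treated wild type and 0 in both untreated libraries. As a check of treatment, each of 8 LPS response genes was higher after LPS in both genotypes. Each of 20 proliferation genes was lower, with median log2 ratios of -1.69 in Hnrnpul1-/- and -1.73 in wild type. In such bulk samples, fewer cells of a type and less RNA per cell cannot be told apart.

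Together the 42 genes took 1.257% of all counts in LPS-treated Hnrnpul1-/-, 1.662% in untreated Hnrnpul1-/-, 1.239% in LPS-treated wild type and 1.667% in untreated wild type. After TMM scaling their sums were 13986, 14896, 13757 and 15061 CPM in the same order. Per length, the authors' FPKM put Hnrnpab, an A/B-type hnRNP, first in all 4 libraries. It had 319.9 and 283.8 FPKM in LPS-treated and untreated Hnrnpul1-/-, against 286.1 and 303.7 FPKM in LPS-treated and untreated wild type. The next ranks were shared by Hnrnpa1, Pcbp1, Hnrnpa2b1 and Hnrnpa0. Hnrnpa1, a repressor of exon inclusion, stood at 262.9, 251.2, 248.4 and 243.1 FPKM in LPS-treated Hnrnpul1-/-, untreated Hnrnpul1-/-, LPS-treated wild type and untreated wild type. Pcbp1, a poly(C)-binding protein, stood at 231.7, 253.5, 237.7 and 267.8 FPKM in the same order.

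At the low end, Hnrnpa3 had 4.68, 8.51, 5.10 and 8.64 FPKM and Hnrnpr, a relative of SYNCRIP, 5.16, 8.87, 5.36 and 8.70 FPKM. Srsf4 ranged from 6.13 to 8.98 FPKM and Pspc1 from 6.75 to 10.4 FPKM. Length and copies enter these values: the deposited length of Hnrnpr is 22199 bases, and 27.1% of the 50-base words of Hnrnpa3 transcripts also occur in transcripts of 46 other genes, 41 of them pseudogenes. The sources used here do not give how reads with several matches were counted, so the level of Hnrnpa3 is uncertain.

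**Figure D1:**
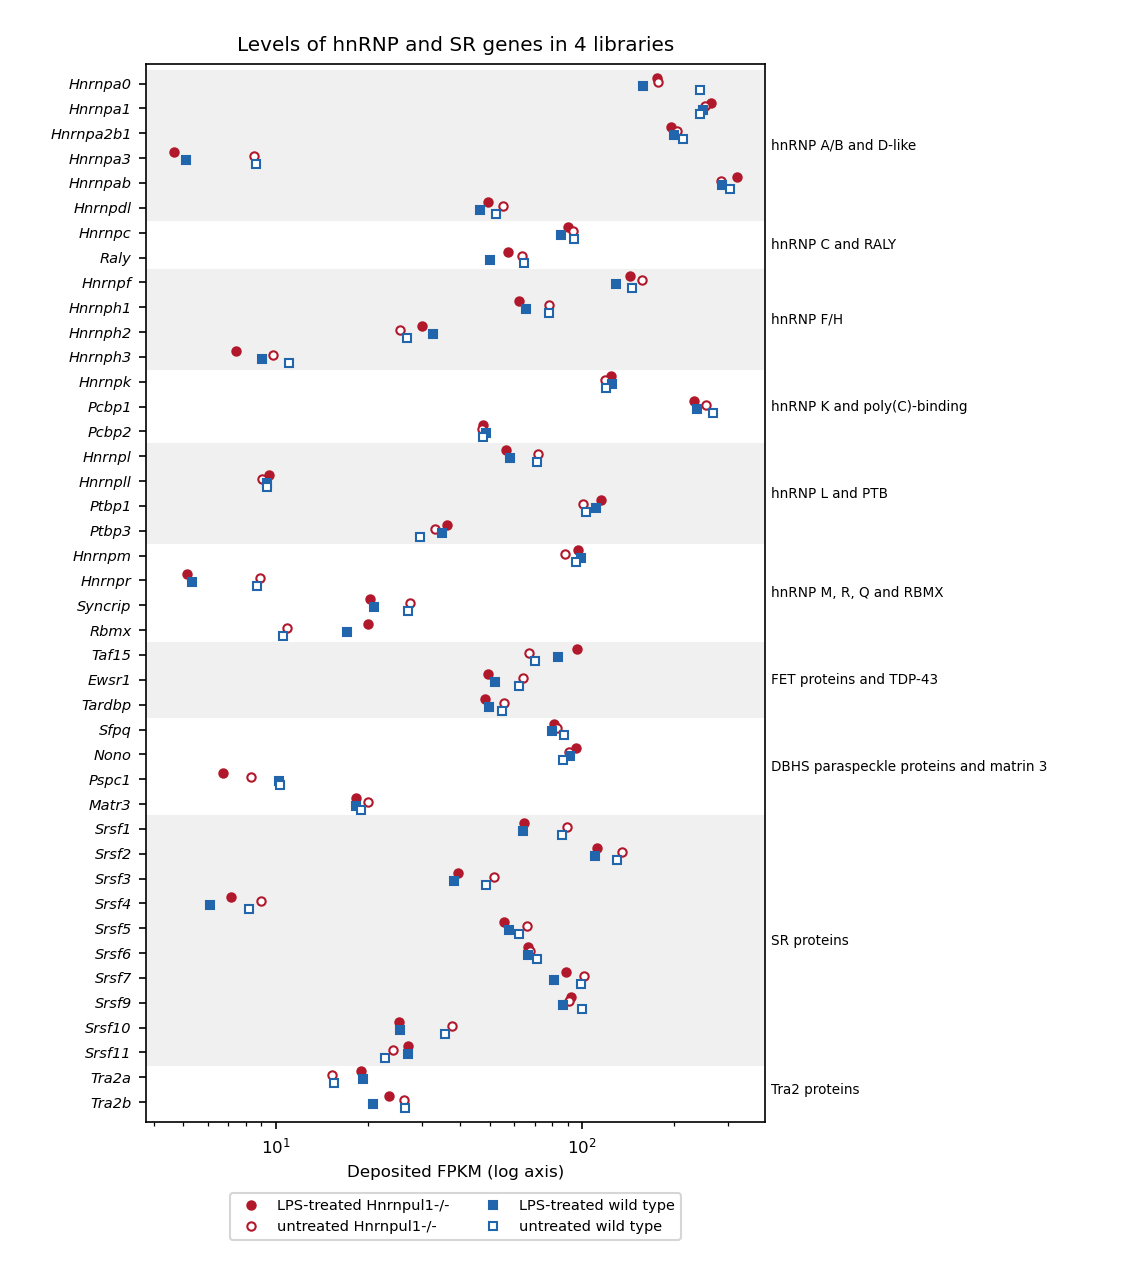
Deposited FPKM (log axis) of each of the 42 genes in the 4 libraries, grouped by protein class; filled symbols are LPS-treated and open symbols untreated, red circles Hnrnpul1-/- and blue squares wild type, 1 library each. The 4 symbols of most genes lie close together, and Hnrnpa3, Hnrnpr and Rbmx are the genes whose filled and open symbols stand farthest apart.

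With LPS most members stayed within 1.5-fold, and more ratios lay below 0 than above it, 27 against 15 in Hnrnpul1-/- and 30 against 12 in wild type. In Hnrnpul1-/- cells 38 of 42 members lay within 1.5-fold, and in wild-type cells also 38 of 42, or 90.5%, against 58.4% and 60.2% of all genes and 63.6% and 65.1% of genes with at least 10 CPM. At this rule 1 member was higher in each genotype, where 19.3% of all genes were higher in Hnrnpul1-/- and 18.9% in wild type. Likewise 3 members were lower in each genotype, where 21% and 19.2% of all genes were lower. No member reached 2-fold in any comparison, while 23.6% of all genes did with LPS in Hnrnpul1-/- and 21.4% in wild type, 3.49% between genotypes under LPS and 2.01% untreated, and 3.02% in the difference of LPS responses. The calls shared by both genotypes were Rbmx higher and Hnrnpa3 and Hnrnpr lower, beside 15.9% higher and 16.1% lower over the whole table. Median log2 ratios of the members were -0.14 in Hnrnpul1-/- and -0.15 in wild type, beside -0.02 and -0.004 over all genes. Both LPS intervals lay below 0 for 22 members and above 0 for 10, shares of 52.4% and 23.8%, against 31.2% and 31.9% of all genes. Mixed or covering intervals were found for 21.4% of members and 35.8% of all genes. Whether an interval excludes 0 depends on read depth, and these shares were not matched for depth.

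A test that takes the genotypes as replicates of the LPS response is the additive edgeR fit over all 4 libraries (quasi-likelihood test, 1 residual degree of freedom, adjusted over 11640 genes). With LPS, 5 members rose and 18 fell in this fit (adjusted p under 0.05), 23 in all, while 30.2% of all genes rose and 30.1% fell. This fit takes any difference between the genotypes' responses as noise. Across the 42 genes, which are not independent of one another, the LPS ratios of the genotypes, which share no library, had a Pearson correlation of 0.88. Some of these directions depend on the scaling. With total counts the median of all genes lay at -0.33 in Hnrnpul1-/- and -0.30 in wild type, the ratios of 13 and 10 members changed sign, and 13 members were lower in each genotype with 0 higher. The share of all genes called on that scale is not given here, so these counts cannot be read as high or low. Of the 5 members that rose, Rbmx stayed above 0 in both genotypes on that scale, whereas Hnrnph2 (-0.09 and -0.01) and Srsf11 (-0.16 and -0.05) were below 0 in both, Taf15 was at 0.20 and -0.04, and Tra2a at -0.01 and 0.02, in Hnrnpul1-/- and wild type.

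**Figure D2:**
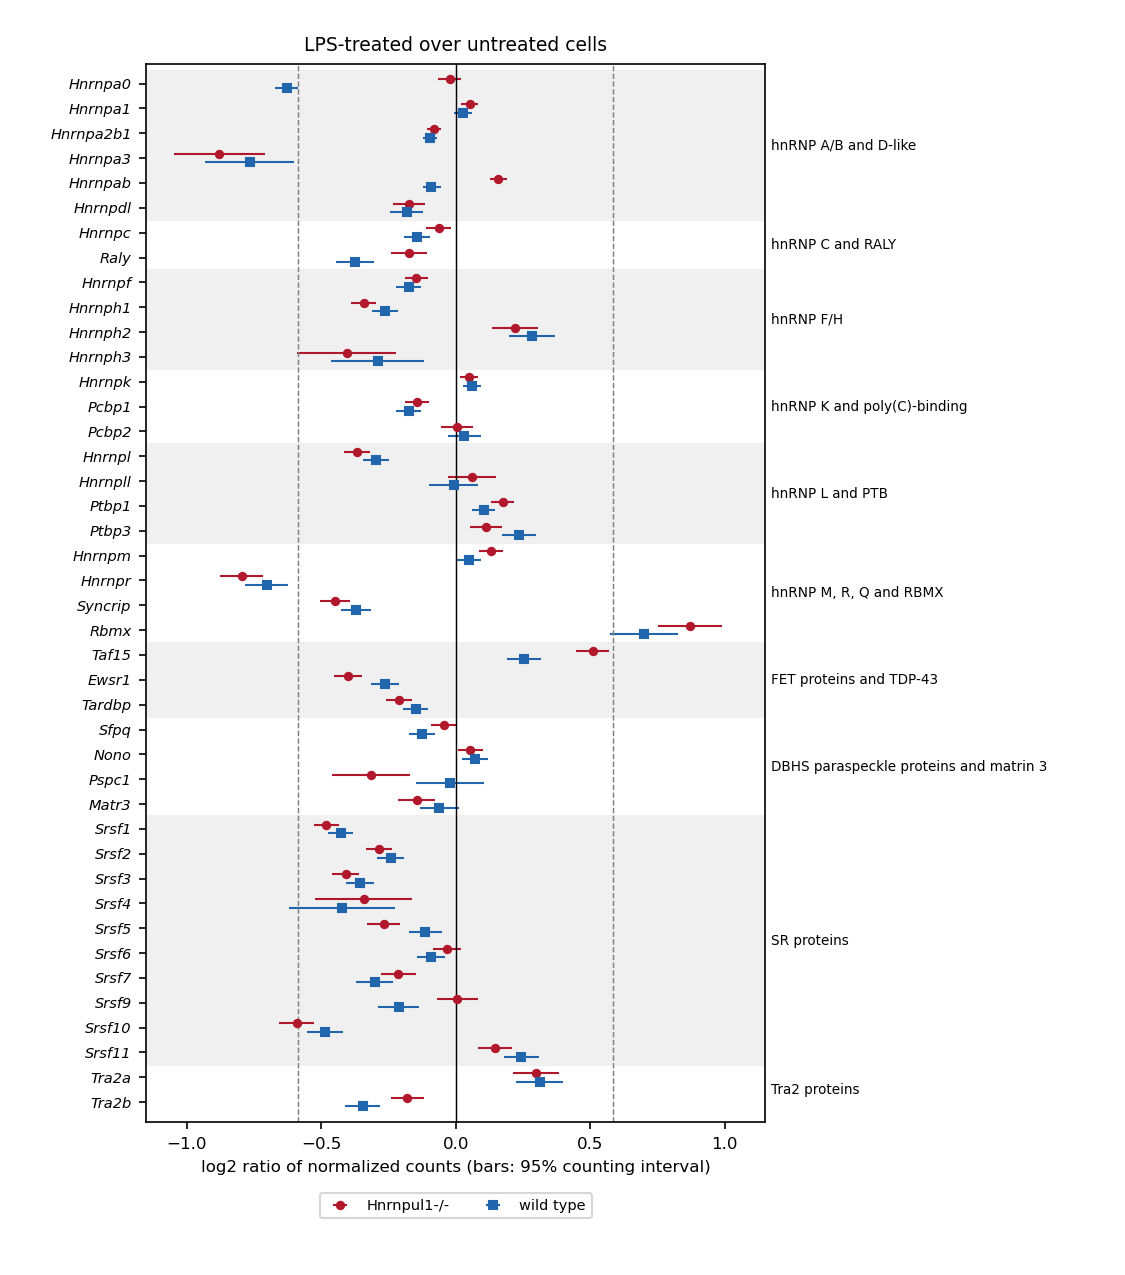
log2 ratio of TMM-normalized counts, LPS-treated over untreated, for the 42 genes in Hnrnpul1-/- (red circles) and wild type (blue squares), with 95% counting intervals; dashed lines mark 1.5-fold. Rbmx lies farthest to the right and Hnrnpa3 and Hnrnpr farthest to the left in both genotypes, and Hnrnpa0 is the gene whose symbols stand farthest apart.

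Rbmx, which encodes hnRNP G, an X-linked hnRNP that binds pre-mRNA, was the member most raised by LPS. It had 1441 reads in LPS-treated and 948 in untreated Hnrnpul1-/-, and 1181 reads in LPS-treated against 900 in untreated wild type. These are levels of 89.5 and 48.9 CPM in Hnrnpul1-/- and of 76.9 and 47.4 CPM in wild type. Both LPS-treated libraries were above both untreated ones, with log2 ratios of 0.87 (0.75 to 0.99) in Hnrnpul1-/- and 0.70 (0.57 to 0.83) in wild type, and an adjusted p of 7.2e-05 in the additive edgeR fit. With total counts these ratios were 0.56 and 0.40, under 1.5-fold.

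Hnrnpa3 and Hnrnpr were lower with LPS at 1.5-fold in both genotypes. Hnrnpa3, a relative of hnRNP A2/B1, had 419 reads (26.0 CPM) in LPS-treated and 926 reads (47.8 CPM) in untreated Hnrnpul1-/-, and 437 reads (28.5 CPM) in LPS-treated against 919 reads (48.4 CPM) in untreated wild type. The untreated levels of both genotypes nearly coincided and both LPS levels were lower, at log2 ratios of -0.88 (-1.05 to -0.71) in Hnrnpul1-/- and -0.77 (-0.93 to -0.60) in wild type. Hnrnpr had 118 CPM in LPS-treated and 205 CPM in untreated Hnrnpul1-/-, and 123 CPM in LPS-treated against 200.3 CPM in untreated wild type. Its log2 ratios were -0.80 (-0.88 to -0.72) in Hnrnpul1-/- and -0.70 (-0.78 to -0.62) in wild type, with an adjusted p of 4.1e-05 in the additive edgeR fit, the smallest among the members. Syncrip, which encodes hnRNP Q, the closest relative of hnRNP R, also fell, with log2 ratios of -0.45 and -0.37.

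Hnrnpa0, which has 1 annotated transcript and whose product binds AU-rich elements of cytokine mRNAs and is phosphorylated in LPS-stimulated macrophages, had an LPS ratio that differed between the genotypes. It stood at 486 CPM in LPS-treated and 493 CPM in untreated Hnrnpul1-/-, and at 437 CPM in LPS-treated against 675 CPM in untreated wild type. Untreated wild type was thus the library apart, with 12819 reads. The LPS log2 ratio was -0.02 (-0.07 to 0.02) in Hnrnpul1-/- and -0.63 (-0.67 to -0.59) in wild type. The difference of these ratios, 0.61 (0.55 to 0.67), met 1.5-fold in the comparison of LPS responses, where 2.64% of all genes were higher and 3.86% lower in Hnrnpul1-/-. No other member passed 1.5-fold in it. Since 1 library stands apart, no spread between cultures stands behind it, and in the additive edgeR fit Hnrnpa0 did not pass for LPS (adjusted p = 0.054) or for genotype (adjusted p = 0.70).

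Promoter sequence is shown for the 5 genes that met 1.5-fold in some comparison and whose RefSeq start lay within 2 bases of the deposited gene end. Each line gives the 200 bases before the start, read 5′ to 3′ on the gene's strand (RefSeq, GRCm38.p6). Capitals mark matches, on either strand, to the motifs searched.
Rbmx (chrX:57393037-57393236, minus strand): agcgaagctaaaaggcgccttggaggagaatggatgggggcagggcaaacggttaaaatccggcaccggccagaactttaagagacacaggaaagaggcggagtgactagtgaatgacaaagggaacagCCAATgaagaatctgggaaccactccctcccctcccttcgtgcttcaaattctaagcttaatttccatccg
Hnrnpa3 (chr2:75659059-75659258, plus strand): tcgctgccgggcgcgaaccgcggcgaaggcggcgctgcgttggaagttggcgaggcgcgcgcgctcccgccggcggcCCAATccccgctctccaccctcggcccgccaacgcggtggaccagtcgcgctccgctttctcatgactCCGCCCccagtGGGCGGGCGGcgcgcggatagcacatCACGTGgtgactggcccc
Hnrnpr (chr4:136310742-136310941, plus strand): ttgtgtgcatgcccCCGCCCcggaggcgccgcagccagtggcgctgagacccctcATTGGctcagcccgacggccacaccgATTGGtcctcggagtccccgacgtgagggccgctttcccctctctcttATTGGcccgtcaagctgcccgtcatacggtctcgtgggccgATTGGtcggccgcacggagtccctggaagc
Hnrnpa0 (chr13:58128557-58128756, minus strand): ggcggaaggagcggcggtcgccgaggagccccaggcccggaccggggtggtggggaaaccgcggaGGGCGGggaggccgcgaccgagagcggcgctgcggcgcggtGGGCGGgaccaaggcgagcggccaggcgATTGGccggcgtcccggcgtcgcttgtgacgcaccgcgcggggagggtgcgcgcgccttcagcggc
Pspc1 (chr14:56778319-56778518, minus strand): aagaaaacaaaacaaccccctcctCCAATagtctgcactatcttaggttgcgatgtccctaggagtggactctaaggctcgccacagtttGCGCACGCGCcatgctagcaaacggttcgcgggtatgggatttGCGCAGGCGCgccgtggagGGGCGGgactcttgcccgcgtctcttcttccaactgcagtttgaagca
The capitals stand for the GC box (GGGCGG), the CCAAT box (CCAAT), the E-box (CACGTG) and the NRF1 motif, and adjoining or overlapping matches run together, as in Hnrnpa3. All 5 promoters hold a CCAAT box, and that of Hnrnpr holds 4, at 30, 71, 119 and 145 bases before the start. Over the 300-base window from 250 bases before to 50 after the start, 22 of 39 matched members (56.4%) and 39.9% of 8253 promoters of measured coding genes hold CCAAT. The GC box was in 74.4% of the members and 66.7% of all promoters, the ETS motif (CCGGAA) in 33.3% and 31.8%, the E-box in 12.8% and 10.7%, the NRF1 motif in 12.8% and 12.0%, and the kappaB motif in 5.13% and 4.93%. The TATA box (TATAAA) was in 12.8% and 6.37%, the CRE motif (TGACGTC) in 10.3% and 6.13%, YY1 (AAGATGGCG) in 2.56% and 3.76% and the ISRE core in 2.56% and 3.33%. In the 300-base window but outside the printed bases, Hnrnpr also matched the ETS and kappaB motifs, and Rbmx the TATA box. No RefSeq promoter was matched for Hnrnpll, Ptbp3 and Matr3.

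Among the 10 SR proteins, 7 fell with LPS in the additive edgeR fit, 1 rose, and Srsf6 and Srsf9 did not pass, where 30.1% of all genes fell and 30.2% rose. The summed level of the 10 genes was 2409 CPM in LPS-treated and 2901 CPM in untreated Hnrnpul1-/-, and 2383 CPM in LPS-treated against 2816 CPM in untreated wild type. Srsf10, whose product represses splicing when dephosphorylated, as in mitosis or heat shock, had the lowest ratio of the SR genes in each genotype. It had 182 and 274 CPM in LPS-treated and untreated Hnrnpul1-/-, and 185 against 259 CPM in LPS-treated and untreated wild type. Its log2 ratios of -0.59 (-0.66 to -0.53) and -0.49 (-0.55 to -0.42) lay on either side of the 1.5-fold line, so Srsf10 was called in Hnrnpul1-/- and not in wild type, and the ratios differed by -0.11 (-0.20 to -0.01). In Hnrnpul1-/- it was under that line with DESeq2 size factors (-0.57), with no filter (-0.57), with protein-coding genes alone (-0.56) and with the deposited FPKM (-0.56).

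Srsf1, a founding member of the SR family, had 380 and 530 CPM in LPS-treated and untreated Hnrnpul1-/-, and 380 against 511 CPM in LPS-treated and untreated wild type. Its levels under LPS were alike in both genotypes, and the log2 ratios were -0.48 (-0.53 to -0.43) and -0.43 (-0.47 to -0.38). Srsf3, the smallest SR protein, had log2 ratios of -0.41 and -0.36, and Srsf2, which binds exonic enhancers of many genes, -0.29 (-0.34 to -0.24) and -0.24 (-0.29 to -0.19). The ratios of Srsf4 were -0.34 and -0.42, those of Srsf5, at 229, 275, 238 and 257 CPM in LPS-treated Hnrnpul1-/-, untreated Hnrnpul1-/-, LPS-treated wild type and untreated wild type, -0.27 and -0.11, and those of Srsf7 -0.21 and -0.30 in Hnrnpul1-/- and wild type. Srsf11, an SR protein that binds U2AF, rose (adjusted p = 0.0379, additive edgeR fit), with 235 and 213 CPM in LPS-treated and untreated Hnrnpul1-/-, and 236 against 200 CPM in LPS-treated and untreated wild type. The proliferation genes listed, which fell in 20 of 20 cases in the same fit, moved with these SR genes, and their part in the result was not tested.

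The Tra2 proteins, splicing activators that bind GAA-rich enhancers, had ratios of opposite sign. Tra2a had 136 and 111 CPM in LPS-treated and untreated Hnrnpul1-/-, and 138 against 111 CPM in LPS-treated and untreated wild type, log2 ratios of 0.30 (0.21 to 0.39) and 0.31 (0.23 to 0.40). Tra2b had 223 and 252 CPM in LPS-treated and untreated Hnrnpul1-/-, and 199 against 253 CPM in LPS-treated and untreated wild type, log2 ratios of -0.18 (-0.24 to -0.12) and -0.35 (-0.41 to -0.28). Tra2a rose (adjusted p = 0.0056) and Tra2b fell (adjusted p = 0.014) in the additive edgeR fit.

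In the hnRNP classes the A/B and D-like group held 2 members that fell, Hnrnpa3 and Hnrnpdl. Hnrnpa1 (log2 ratios 0.05 in Hnrnpul1-/- and 0.03 in wild type) and Hnrnpa2b1 (-0.08 and -0.10) did not pass. Raly fell and its paralog Hnrnpc, the U-tract binder of the core hnRNP particle, did not pass (adjusted p = 0.21 in the additive edgeR fit). Of the F/H proteins, which bind runs of G, Hnrnph1 (-0.34 and -0.26) and Hnrnph3 (-0.41 and -0.29) fell and the X-linked Hnrnph2 rose (0.22 and 0.28). Hnrnph2 had 135 and 116 CPM in LPS-treated and untreated Hnrnpul1-/-, and 148 against 122 CPM in LPS-treated and untreated wild type. Hnrnpl, which binds CA repeats, fell (-0.37 and -0.30). Its relative Hnrnpll, known for silencing exons of Ptprc (CD45) in mouse T cells, had 115, 110, 113 and 114 CPM in LPS-treated Hnrnpul1-/-, untreated Hnrnpul1-/-, LPS-treated wild type and untreated wild type. Ptbp1, the polypyrimidine tract repressor, had log2 ratios of 0.17 and 0.10, and Ptbp3 0.11 and 0.24, neither past the threshold in the additive fit.

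Hnrnpk and Pcbp2, which bind C-rich RNA, were among the flattest members. Pcbp2 had 255, 255, 262 and 256 CPM in LPS-treated Hnrnpul1-/-, untreated Hnrnpul1-/-, LPS-treated wild type and untreated wild type, a log2 range of 0.038, the smallest of the 42. The median log2 range over the 4 libraries was 0.297 for the members and 0.526 for genes with at least 10 CPM, and the largest among the members was 0.918, of Rbmx. Counting error widens such a range at low read numbers, and these medians were not matched for depth. Hnrnpm, whose product is known to restrain splicing of Il6 transcripts in mouse macrophages, had 470 and 429 CPM in LPS-treated and untreated Hnrnpul1-/-, and 483 against 467 CPM in LPS-treated and untreated wild type. Its log2 ratios were 0.13 (0.09 to 0.18) and 0.05 (0.00 to 0.09).

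Taf15 and Ewsr1, of the FET family that couples transcription to RNA processing, moved in opposite directions. Taf15 had 290 and 204 CPM in LPS-treated and untreated Hnrnpul1-/-, and 253 against 212 CPM in LPS-treated and untreated wild type. Ewsr1 had 299.8 and 396 CPM in LPS-treated and untreated Hnrnpul1-/-, and 319 against 382 CPM in LPS-treated and untreated wild type. Taf15 rose and Ewsr1 fell in the additive edgeR fit (adjusted p of 0.0038 and 0.0037). Tardbp, encoding TDP-43, a repressor of cryptic exons, fell as well (log2 ratios -0.21 and -0.15). Sfpq, Nono and Matr3, nuclear proteins of paraspeckles and the nuclear matrix, did not pass, with ratios between -0.14 and 0.07.

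The balance between transcripts of related genes can be read within a library, free of scaling, and says nothing of protein levels. Of 16 paralog pairs, the ratio of the first gene to the second was higher with LPS in both genotypes for 9 and lower for 3, counting intervals excluding 0. The direction depends on which gene is named first, and no share over other gene pairs was computed. At these read numbers small changes also count, such as 0.09 (0.02 to 0.15) for Hnrnpf to Hnrnph1 in wild type. The level of Taf15 per length was 1.96 times that of Ewsr1 in LPS-treated and 1.04 times in untreated Hnrnpul1-/-, and 1.61 against 1.12 times in LPS-treated and untreated wild type. This is a log2 change of 0.91 (0.83 to 0.99) in Hnrnpul1-/- and 0.52 (0.44 to 0.60) in wild type, intervals that do not overlap. The genotypes' intervals also did not overlap for Srsf9 to Srsf1, Srsf6 to Srsf5, Pspc1 to Sfpq and Ptbp3 to Ptbp1. For Srsf9 to Srsf1 they were 0.396 to 0.574 in Hnrnpul1-/- and 0.125 to 0.305 in wild type. All these intervals cover counting error in single libraries only. Tra2a stood at 0.811 and 0.582 times Tra2b in LPS-treated and untreated Hnrnpul1-/-, and at 0.922 against 0.585 times in LPS-treated and untreated wild type, log2 changes of 0.48 (0.37 to 0.58) and 0.66 (0.55 to 0.77). Hnrnph2 stood at 0.481 and 0.326 times Hnrnph1 in LPS-treated and untreated Hnrnpul1-/-, and at 0.5 against 0.342 times in LPS-treated and untreated wild type, log2 changes of 0.56 and 0.55. The largest mean change over both genotypes was that of Hnrnpa3 to Hnrnpa2b1, with log2 changes of -0.80 (-0.97 to -0.63) and -0.67 (-0.84 to -0.50). For Srsf7 to Srsf3 and Srsf6 to Srsf5 the interval excluded 0 in Hnrnpul1-/- alone, at 0.20 and 0.24, against 0.06 and 0.02 in wild type. Pspc1 to Sfpq was lower in Hnrnpul1-/- alone (-0.27, against 0.11 in wild type), and for Ptbp3 to Ptbp1 the interval excluded 0 in wild type alone, at -0.06 in Hnrnpul1-/- and 0.13 in wild type. The difference between genotypes was not tested for any of the 16 pairs.

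**Figure D3:**
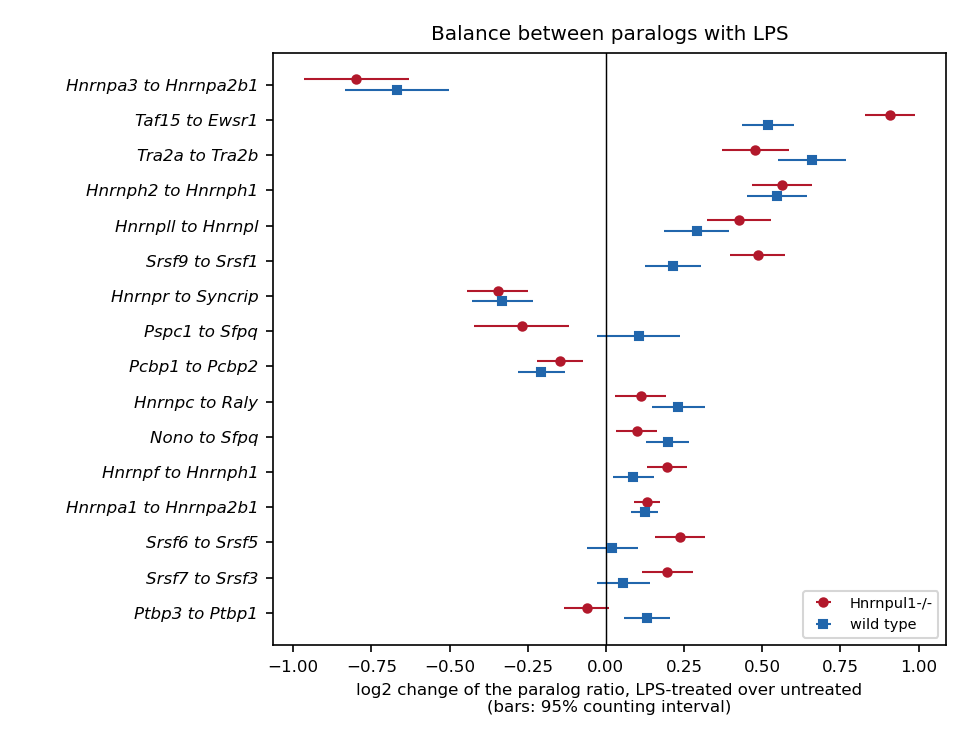
log2 change with LPS, LPS-treated over untreated, of the within-library count ratio of 16 paralog pairs in Hnrnpul1-/- (red circles) and wild type (blue squares), with 95% counting intervals. Pairs run from the smallest mean change at the bottom to the largest at the top, where Hnrnpa3 to Hnrnpa2b1 lies left of 0 and Taf15 to Ewsr1, Tra2a to Tra2b and Hnrnph2 to Hnrnph1 lie right of 0.

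In Hnrnpul1-/- cells nearly all hnRNP and SR transcripts lay within 1.5-fold of wild type. Under LPS 41 of 42 members (97.6%) and untreated 42 of 42 lay within 1.5-fold, against 89.2% and 92.9% of all genes and 95.4% and 97.7% of genes with at least 10 CPM. By the rule of size and interval 0 members were higher and 1 lower under LPS, where 3.98% of all genes were higher and 4.50% lower. Untreated, 0 members were higher and 0 lower, where 2.71% and 2.17% of all genes were. The members' median log2 ratios were 0.000 under LPS and -0.001 untreated. The additive edgeR fit gave 0 members at the adjusted p threshold of 0.05 for genotype and 1 at an unadjusted p under 0.05, while 0.988% of all genes were higher and 0.928% lower. A ratio near 0 between single libraries does not show that the genotypes are equal.

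Pspc1, whose product pairs with SFPQ and NONO in paraspeckles and whose transcript was less abundant than theirs, was the member lower in Hnrnpul1-/- under LPS. It had 642 reads (39.9 CPM) in LPS-treated Hnrnpul1-/- against 935 reads (60.9 CPM) in LPS-treated wild type, and 960 reads (49.6 CPM) in untreated Hnrnpul1-/- against 1173 reads (61.8 CPM) in untreated wild type. Both knockout libraries were thus below both wild-type ones. The log2 ratio was -0.61 (-0.76 to -0.47) under LPS and -0.32 (-0.44 to -0.19) untreated, and the adjusted p for genotype in the additive edgeR fit was 0.063, which missed the threshold. Under LPS it was -0.585 with libraries thinned to the smallest total count, just short of the 1.5-fold line, and -0.54 with the deposited FPKM, and neither was called. The ratio of Pspc1 to Sfpq per length was 0.083 in LPS-treated Hnrnpul1-/- against 0.128 in LPS-treated wild type, and 0.1 in untreated Hnrnpul1-/- against 0.119 in untreated wild type.

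Smaller genotype ratios included Hnrnpa0 at 0.15 (0.11 to 0.20) under LPS and -0.45 (-0.49 to -0.41) untreated, Rbmx at 0.22 (0.11 to 0.33) and 0.05 (-0.09 to 0.18), and Srsf4 at 0.22 (0.01 to 0.43) and 0.14 (-0.03 to 0.30). Hnrnph3, on 390 reads in LPS-treated Hnrnpul1-/- against 454 in LPS-treated wild type and 621 in untreated Hnrnpul1-/- against 687 in untreated wild type, had ratios of -0.29 (-0.49 to -0.09) under LPS and -0.17 (-0.33 to -0.02) untreated. Srsf4 had 26.3 CPM in LPS-treated Hnrnpul1-/- against 22.6 in LPS-treated wild type, and 33.3 in untreated Hnrnpul1-/- against 30.3 in untreated wild type. Hnrnpf, a binder of G-runs, had 450.1 CPM in LPS-treated Hnrnpul1-/- against 406 in LPS-treated wild type, and 498 in untreated Hnrnpul1-/- against 458 in untreated wild type. The highest untreated ratio, that of Ptbp3, was 0.17 (0.11 to 0.23), on 258 CPM in Hnrnpul1-/- against 229 CPM in wild type, and under LPS it was 0.05 (-0.01 to 0.11), on 279 against 270 CPM.

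**Figure D4:**
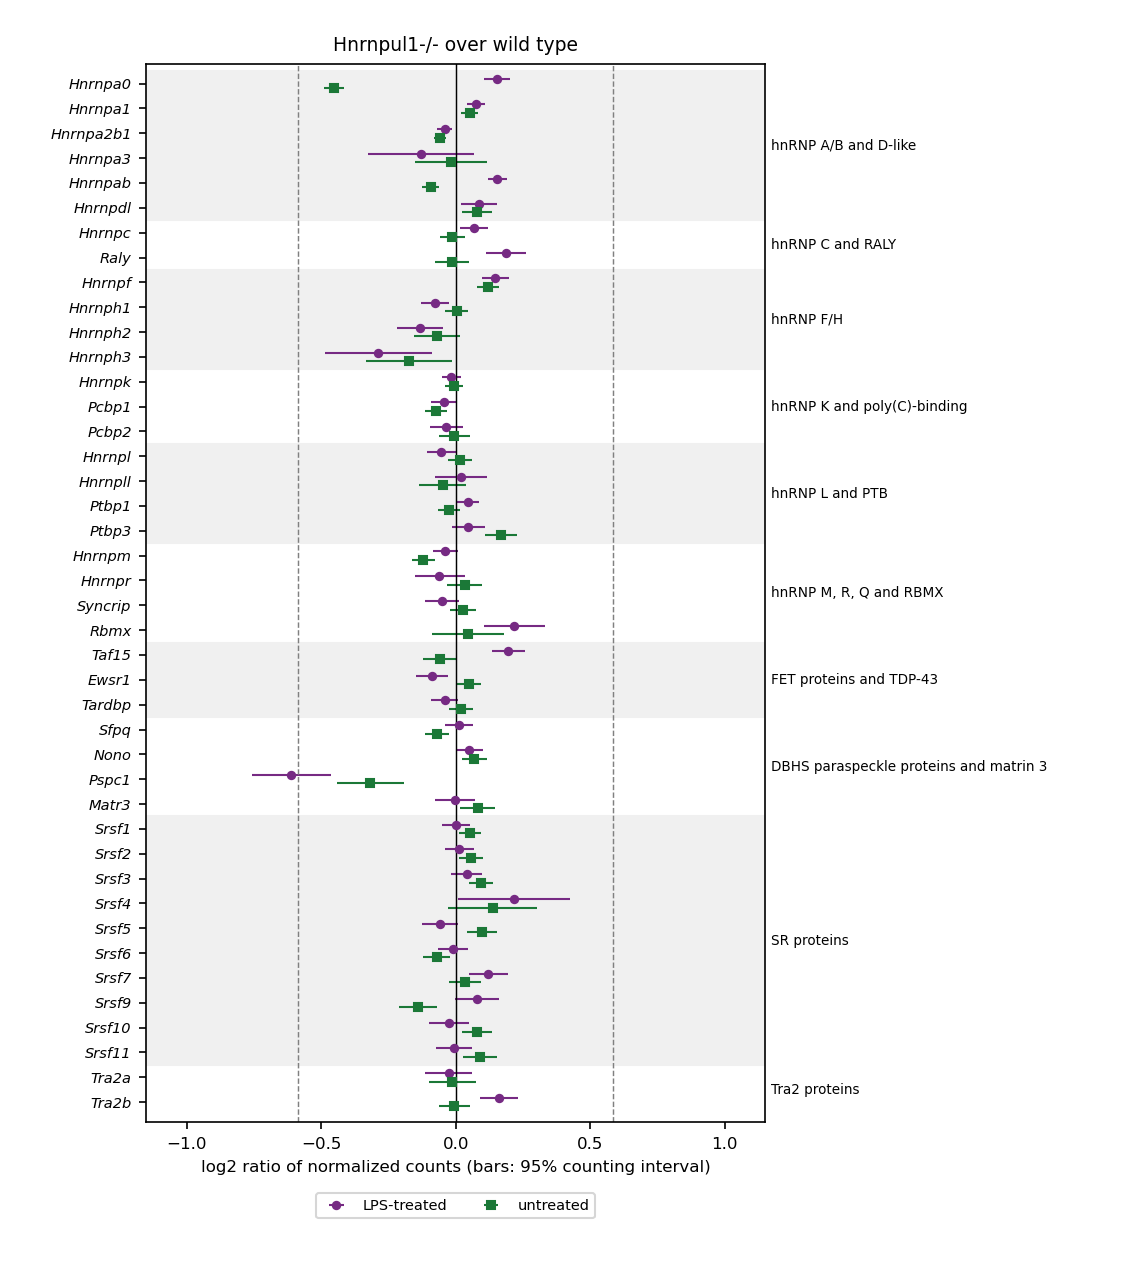
log2 ratio of TMM-normalized counts, Hnrnpul1-/- over wild type, for the 42 genes in LPS-treated (purple circles) and untreated cells (green squares), with 95% counting intervals; dashed lines mark 1.5-fold. Most symbols lie near 0, and Pspc1 under LPS, at -0.61, is the one beyond a dashed line.

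**Figure D5:**
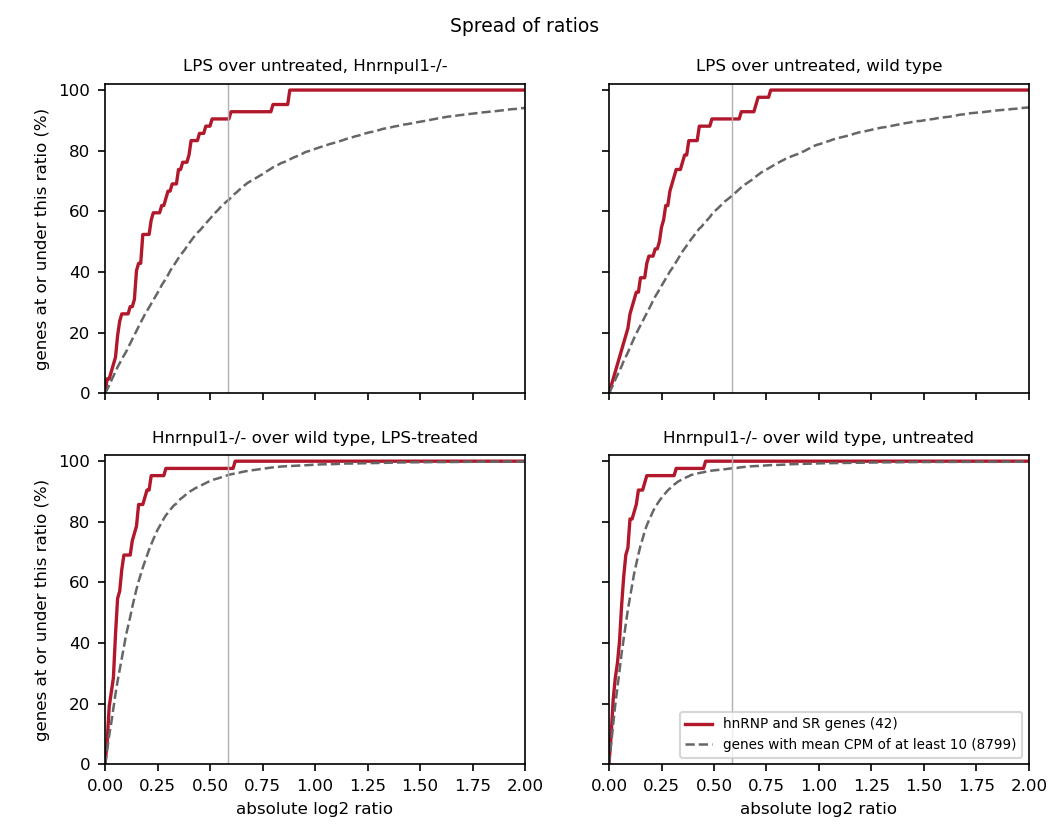
Share of genes (y axis, %) whose absolute log2 ratio (x axis) is at or under a given size, for the 42 hnRNP and SR genes (red) and the 8799 genes with a mean of at least 10 CPM (dashed grey), in the 4 comparisons; the vertical line marks 1.5-fold. At the vertical line the red and grey curves stand at 90.5% and 63.6% for LPS in Hnrnpul1-/-, 90.5% and 65.1% for LPS in wild type, 97.6% and 95.4% for genotype under LPS, and 100% and 97.7% for genotype untreated.

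Other genes of the splicing machinery also stayed within 1.5-fold for the most part. Over all genes, the shares called were 19.3% higher and 21% lower after LPS in Hnrnpul1-/-, and 18.9% higher and 19.2% lower in wild type. Among 40 genes of the core spliceosome each genotype had 0 calls upward and 1 downward after LPS, Bcas2 in Hnrnpul1-/- (log2 ratio -0.60) and Sf3b5 in wild type (-0.62), with medians of -0.10 and -0.09. Of 18 measured SR-related and other hnRNP genes, 0 were higher in either genotype, 1 was lower in Hnrnpul1-/- (Rsrc1, -0.96) and 0 in wild type. Of 10 kinases and import factors of SR proteins, 1 was higher in Hnrnpul1-/-, Clk3 (0.60, against 0.23 in wild type), and 0 were lower. Of 28 other measured splicing regulators, 2 were higher in each genotype, and 3 were lower in Hnrnpul1-/- and 2 in wild type. Mbnl2, a muscleblind protein that binds CUG and related motifs, was higher, at 1.00 in Hnrnpul1-/- and 1.22 in wild type, and Rbm17, a splice site recognition factor, stood at 0.65 and 0.49. Cirbp, a cold-inducible RNA-binding protein, was lower, at -1.25 and -0.91, on 168 and 482 reads in LPS-treated and untreated Hnrnpul1-/- and 162 against 377 reads in LPS-treated and untreated wild type. The remaining calls were Nova1 lower in both genotypes (-0.78 and -0.72), Mbnl1 lower in Hnrnpul1-/- (-0.64, against -0.34 in wild type) and Rbm4 higher in wild type (0.66, against 0.09 in Hnrnpul1-/-, on 68 to 87 reads a library). In the additive edgeR fit LPS raised 3 and lowered 12 core genes, 1 and 9 SR-related and hnRNP genes, 1 and 4 kinases and import factors, and 5 and 5 other regulators, beside 30.2% of all genes raised and 30.1% lowered. Between genotypes, 0 genes of these 4 lists were called in either treatment. Over all genes 3.98% were called higher and 4.50% lower under LPS, and 2.71% and 2.17% untreated. Of genes with at least 10 CPM, 95.4% under LPS and 97.7% untreated lay within 1.5-fold.

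Gene counts sum all transcripts of a gene, including those that make no protein. In GENCODE M21, 26 of 42 members (61.9%) have an annotated nonsense-mediated decay transcript, against 30.7% of 10331 measured coding genes, and 29 (69.0%) have a retained-intron transcript, against 62.0%. Of the 10 SR genes, 9 have a decay transcript, and Tardbp has 10 of them. A shift between such forms and coding ones would not show in these counts. Exons of 8 members overlap other genes over more than 10% of their bases, led by Srsf4 (43.0%, with Gm12992), Pcbp2 (36.2%) and Hnrnpab (29.1%, with Phykpl), and since the strand setting of the counting is not given, reads there are uncertain. For Hnrnpf, 61.9% of 50-base words occur in another gene and for Hnrnpa1 28.2%, while 20 members have under 5%.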

How the data were processed

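Polyadenylated RNA from 4 cultures was sequenced, 1 library per group. Per the submitters' processing notes, reads were handled with CASAVA 1.8, HISAT2 2.0.5 and, for counting, featureCounts 1.5.0-p3, with GRCm38 and mm10 as builds. The sources used here do not give the strand setting. The deposited counts are whole reads per gene. The deposited FPKM, by the authors, equal the count over the deposited gene length and a constant per library. That constant was 0.927 times the total count in LPS-treated Hnrnpul1-/- and 1.16 times in untreated Hnrnpul1-/-. It was 0.932 and 1.15 times the total in LPS-treated and untreated wild type. These values lie near the TMM factors, so the FPKM are no separate check of that scaling. Totals were 17045432 to 17909549 counts.

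TMM factors (edgeR 4.0.16, R 4.3.3) used genes with a mean of at least 1 CPM and were 0.899, 1.12, 0.901 and 1.11 in LPS-treated Hnrnpul1-/-, untreated Hnrnpul1-/-, LPS-treated wild type and untreated wild type. Ratios carry exact conditional 95% intervals, and differences of ratios delta-method ones. Without molecular identifiers reads may be PCR copies, so intervals cover counting error only. A model with additive terms for genotype and LPS used edgeR's quasi-likelihood test, with Benjamini-Hochberg adjustment. Ratios and calls were run on simulated counts with counting error only, and this fit on simulated counts with a fixed dispersion and no genotype effect. These runs check the code and cannot show the spread between cultures.

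Shared sequence was counted as 50-base words of GENCODE M21 transcripts found in transcripts of another gene, on either strand. Gene start and end matched the deposited ones for 40 of 42 members, all but Matr3 and Srsf7. Hnrnpm matched in these and not in length, with 7956 exonic bases against 4701 deposited. Its overlap with another gene, 14.7%, was measured on the GENCODE M21 exons. Motifs were searched on both strands.

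Members, classes, lists and pairs were chosen with earlier results of these data known. Values in every library are given for members at 1.5-fold in some comparison, the extremes of each comparison and the paralog pairs that moved most, and genes of other lists where called; further members are named by class. Total counts and DESeq2 1.42.0 size factors were tried in place of TMM, as were other filters and rules, thinning and the deposited FPKM as log2(value + 1).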

Additional observations from a re-analysis of the deposited data

Results flagged for a closer look

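Hnrnpab was the 1 member whose LPS response pointed in opposite directions in the genotypes, with counting intervals on either side of 0. Such opposite intervals were found for 2.38% of the members and 1.12% of all genes. Hnrnpab stood at 917 CPM in LPS-treated and 822 CPM in untreated Hnrnpul1-/-, and at 824 CPM in LPS-treated against 877 CPM in untreated wild type. Its log2 ratios were 0.16 (0.13 to 0.19) in Hnrnpul1-/- and -0.09 (-0.12 to -0.06) in wild type. The difference of 0.25 (0.20 to 0.30) rests on counting error alone, was not tested between cultures, and stayed under 1.5-fold. With total counts both ratios of Hnrnpab were below 0, at -0.15 in Hnrnpul1-/- and -0.39 in wild type, so the opposite directions hold with TMM scaling and not with that one. Its exons overlap those of Phykpl over 29.1% of their bases.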

How the results depend on the processing

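With total counts, 0 members were higher and 13 lower with LPS in each genotype, and the members' median log2 ratios were -0.46 in Hnrnpul1-/- and -0.44 in wild type, because the median of all genes moved to -0.33 and -0.30. No share of all genes called on that scale stands beside these counts of members. At 2-fold, 0 members were called in any comparison. Requiring the whole interval beyond 1.5-fold left 0 higher with LPS in wild type, 0 lower between genotypes under LPS and 0 in the difference of LPS responses. Thinned libraries and the deposited FPKM gave 0 members lower between genotypes under LPS; Pspc1 then stood at -0.585 and -0.54; the FPKM ratio carries a pseudocount of 1, and for thinning the cause was not tested. The additive edgeR fit gave 23 members for LPS where 3 met 1.5-fold the same way in both genotypes, and 0 for genotype where 0 did; it differs in size rule, test and pooling at once, and the cause was not tested. DESeq2 size factors, no filter, a mean of at least 10 CPM and protein-coding genes alone moved none of these counts by over 1.5 times, and no called member changed sign under any scaling tried. Leaving out a library was not possible with 1 per group. Apart from the additive fit, which compares LPS within genotype, no replicate block could be formed. No pairing of replicates was possible, since each group held 1 library. Members had 347 to 27624 reads a library; the spread between cultures was not measured.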
